A study of Mus musculus with 4 samples.

Results

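Mouse mammary glands that had lost ΔNp63 were compared at 5 weeks and at 10 days after the loss was induced, using 1 library a time point from animals labelled Dnp63 cKO, or 2 of 4 libraries in all. The 2 cKO columns of the deposited count table were chosen by their labels, and no measured value entered the choice. All animals were described as iK14-Cre; DNp63 f/f, in which a tamoxifen-inducible Cre is driven by a keratin 14 promoter and both copies of the ΔNp63 part of Trp63 are flanked by Cre target sites. Tamoxifen at 1.5 mg/ml was given at puberty, at 4 weeks of age, and glands were taken 10 days or 5 weeks later. The 2 WT libraries had the same time points and the same protocol text, and no source used here says what sets WT animals apart in allele or Cre state. Gland ages of 5 and 35 weeks stand in the growth protocol, and the later age does not match 4 weeks plus 5 weeks. Digested glands were sorted by removing CD45+, CD31+ and Ter119+ cells, and 100000 cells were used. Whether a library pooled animals is not stated.

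ΔNp63 is the p63 isoform of basal keratinocytes and of the basal (myoepithelial) layer of the mammary gland, where it binds DNA and sustains keratin 5, keratin 14 and adhesion genes. Basal cells lie between the luminal cells, which line the duct and express keratins 8 and 18, and the stroma of fibroblasts, adipocytes and vessels. Between puberty and young adulthood the ducts lengthen and branch into the fat pad. Keratin 14 promoters are active in basal cells, so deletion is directed at that layer. Removal of leukocytes, endothelium and red cells leaves fibroblasts in the sorted fraction, and fibroblast genes were abundant here. In bulk RNA, fewer cells of a type and less RNA per cell cannot be told apart.

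The cKO libraries held 31714181 counts at 10 days and 34230566 at 5 weeks, and the WT libraries 33363255 and 79122250. Levels are given below in CPM, counts relative to library size, after scaling by the trimmed mean of M-values (TMM), and each change over time as a log2 ratio, 5 weeks over 10 days. A gene was called higher or lower when its level differed at least 2-fold. With 1 library a side there is no replicate error and no test, and intervals in parentheses are exact 95% intervals for counting error only. CPM is not scaled by gene length, so levels are compared between libraries and not between genes. Of the 4 libraries, that of cKO at 5 weeks had the largest share of counts in the 10 genes with the most counts, 8.88% against 6.66% to 7.21%.

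The cKO library at 5 weeks resembled that at 10 days for most genes. Of 10417 genes with at least 10 CPM in either cKO library, 187 were higher (1.8%) and 182 lower (1.75%) at 5 weeks, 369 in all (3.54%). These shares are the background for the counts of called members in each gene list. The middle of the distribution was narrow, with a median log2 ratio of -0.03, quartiles of -0.23 and 0.19, and 5th and 95th percentiles of -0.59 and 0.65. At least 4-fold differences were seen in 41 genes that were higher and 48 that were lower. Counting intervals lay wholly past 2-fold for 137 of the 187 higher and 137 of the 182 lower genes. The smallest absolute log2 ratio that was called was 1.00346 and the largest that was not called was 0.996883. Between the same times the WT libraries differed in more of these genes, 378 higher (3.63%) and 288 lower (2.76%), 666 in all (6.39%).

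**Figure D1:**
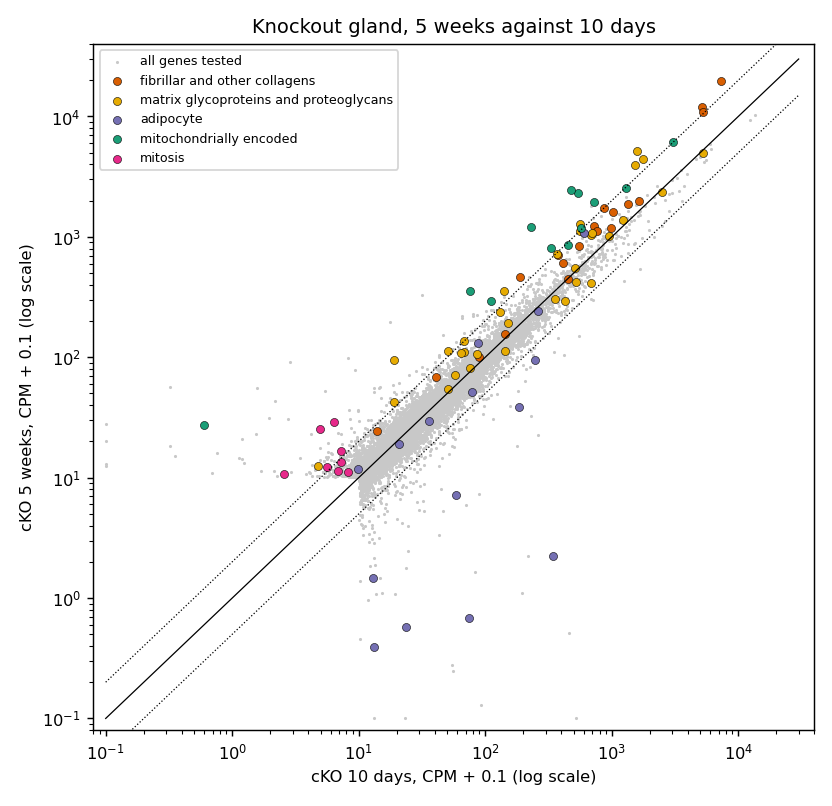
CPM in the cKO library at 10 days (x) and at 5 weeks (y), both on log axes after adding 0.1, for the 10417 genes tested. Dotted lines mark 2-fold differences; the 8 lower adipocyte genes lie under the diagonal and the 10 higher mitochondrially encoded genes above it.

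Most of the genes that changed in cKO stood at an extreme among the 4 libraries. Of the 187 higher genes, 132 (70.6%) had their highest level in cKO at 5 weeks, against 25.5% of all genes tested, and 85 (45.5%) their lowest in cKO at 10 days, against 18.0%. Of the 182 lower genes, 141 (77.5%) were highest in cKO at 10 days, against 19.7% of all genes. These shares are tied to the call itself, which asks for a high 5-week or a high 10-day cKO level, and they are given as a description.

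The deleted gene and the basal keratins remained low at both times. Trp63 (chr16:25683763-25892102, plus strand, GRCm38) was at 12.8 CPM at 10 days and 25.5 CPM at 5 weeks in cKO, with 408 and 865 counts, against 46.8 and 160.5 CPM in WT. Both cKO values were below both WT values. The cKO ratio of 0.99 (0.82 to 1.16) fell just short of 2-fold. Gene counts do not separate the ΔN transcripts from the others, so the deleted part itself was not measured. Krt5, the type II keratin of basal cells, was at 123 CPM and then 235.8 CPM in cKO, and at 1018 and 7826 CPM in WT. Its partner Krt14, whose promoter drives the Cre, was at 411.5 and 320.9 CPM in cKO with a ratio of -0.36, and at 1637 and 6510 CPM in WT. The WT levels of all 3 genes were 2-fold or more higher at 5 weeks, and none of the 3 passed 2-fold in cKO.

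A few keratins did pass it. Krt15, another basal keratin, had 13.2 CPM at 10 days and 51.4 CPM at 5 weeks in cKO (ratio 1.96, 1.81 to 2.12), and both stood below the WT levels of 177.6 and 1020 CPM. Krt1 and Krt10, the keratin pair of the upper epidermis, were at 0.661 and 2.64 CPM at 10 days and at 15.9 and 30.5 CPM at 5 weeks in cKO. Their WT levels were 24.1 and 54.9 CPM for Krt1 and 87.5 and 315.1 CPM for Krt10, so that here too both cKO libraries lay below the 10-day WT level. Krt77, an epidermal keratin of sweat ducts, behaved otherwise. It had 14.6 CPM in cKO at 5 weeks and between 0.871 and 1.04 CPM in the other 3 libraries.

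As groups, the basal, p63 target and contractile genes had medians near 0 in cKO, and few were called, beside 1.8% of all genes called higher. Of 27 basal identity genes tested, 2 were higher (Krt15 and Sparc, the latter also a stromal matrix gene) and 0 lower, with a median ratio of 0.13 against 0.37 in WT. Of 32 p63 targets, 1 (Krt15) was higher and 0 lower, with a median of 0.01, while 11 were higher in WT, where the median was 0.61. Of 20 contractile myoepithelial genes, Actg2, a smooth muscle actin, was the 1 that was higher (1.13), and the median was 0.10. Epidermal and squamous genes included 13 tested, of which Krt1 and Krt10 were higher, with a median of 0.44. In WT 12 of these 13 were higher and the median was 1.68. At any level that passed the count filter, 11 of 26 epidermal and squamous genes were at least 2-fold higher in cKO at 5 weeks, 0 were lower and the median was 0.77. Without a CPM minimum, 6.02% of all 18917 genes were at least 2-fold higher and 4.34% lower.

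Extracellular matrix genes were higher in cKO at 5 weeks. Of 19 collagen genes tested, 18 had a ratio above 0, 4 were called higher (1.8% of all genes were) and 0 lower. The median was 0.65, against -0.03 over all genes. Col3a1, the chain of type III collagen in loose connective tissue, was at 7365 CPM at 10 days and 19638 CPM at 5 weeks in cKO. Its WT levels ran the other way, 13514 and 7054 CPM. Col1a1, a chain of type I collagen, had 5205 and 11889 CPM in cKO and 9018 and 5486 CPM in WT. Both genes were thus highest in cKO at 5 weeks, with cKO at 10 days close to WT at 5 weeks. The log2 ratios were 1.41 for Col3a1 (-0.94 in WT), 1.19 for Col1a1 (-0.72) and 1.04 for Col1a2 (-0.71). Col18a1, whose product lies in basement membranes, had a ratio of 1.31 in cKO and -0.22 in WT. The summed level of the 19 collagens was 27434 CPM in cKO at 10 days, 56454 CPM in cKO at 5 weeks, 44593 CPM in WT at 10 days and 26685 CPM in WT at 5 weeks.

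Matrix glycoproteins and proteoglycans followed the collagens. Of 32 tested, 10 were higher (1.8% of all genes were) and 0 lower, 25 were above 0, and the median was 0.61. In WT 1 was higher, 4 were lower and the median was -0.22. Postn, a matricellular protein of growing and remodelling stroma, had 1569 CPM at 10 days and 5184 CPM at 5 weeks in cKO. In WT it had 5669 and 1702 CPM, so that WT at 10 days and cKO at 5 weeks were high and the other 2 libraries low. Fn1, fibronectin, was at 1764 and 4439 CPM in cKO and at 2745 and 1738 CPM in WT. Sparc, a collagen-binding protein, was at 1526 and 3947 CPM in cKO and at 3097 and 1793 CPM in WT. Aspn, a small leucine-rich proteoglycan, differed from these in WT: it was at 95.6 CPM in cKO at 5 weeks and between 16.9 and 19.7 CPM in the other 3 libraries. Lum and Ogn, of the same proteoglycan family, had ratios of 1.17 and 1.33 in cKO and of -0.30 and 0.36 in WT.

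Enzymes that process collagen moved less. Of 22 collagen maturation and crosslinking genes, 20 were above 0, but 0 were called either way and the median was 0.27. Serpinh1, the collagen chaperone, was at 583.7 CPM at 10 days and 981.7 CPM at 5 weeks (ratio 0.75, and -0.07 in WT). Of 24 matrix proteases and inhibitors, Adamts12 was higher (1.08, and -1.27 in WT) and none lower, beside 1.8% of all genes called higher. Mmp2, a gelatinase, had a ratio of 0.38. Of 17 TGF-beta response genes, 0 were called either way and the median was 0.01.

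Fibroblast genes moved with the matrix genes in part. Of 21 fibroblast genes tested, 5 were higher (Col1a1, Col3a1, Lum, Dpp4 and Fap) and 0 lower, with a median of 0.59. Their summed level was 37406 and 54756 CPM in cKO and 33313 and 29616 CPM in WT. Col1a1 and Col3a1, which are also in the collagen list, made up much of this sum. They went from 5205 and 7365 CPM at 10 days to 11889 and 19638 CPM at 5 weeks in cKO. In WT they went from 9018 and 13514 CPM to 5486 and 7054 CPM. The sum therefore largely repeats the collagen result and does not speak for the other fibroblast genes. Dcn, decorin, was at 5298 and 4944 CPM in cKO (ratio -0.10) and Gsn, gelsolin, at 13620 and 10361 CPM (ratio -0.39). These 2 fibroblast markers were therefore not higher at 5 weeks. Vim, vimentin, had a ratio of 0.24. Of 18 genes that mark universal fibroblast progenitors, 6 were higher and 0 lower, against 1.8% and 1.75% of all genes. Of the 18, 15 were highest of the 4 libraries in cKO at 5 weeks, against 25.5% of all genes. The median of the list was 0.82 in cKO and 0.59 in WT. Its highest ratios were those of Efhd1 (1.34), Fn1 (1.33) and Cd55 (1.18). The part of a change in cell makeup in the matrix result was not tested.

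**Figure D2:**
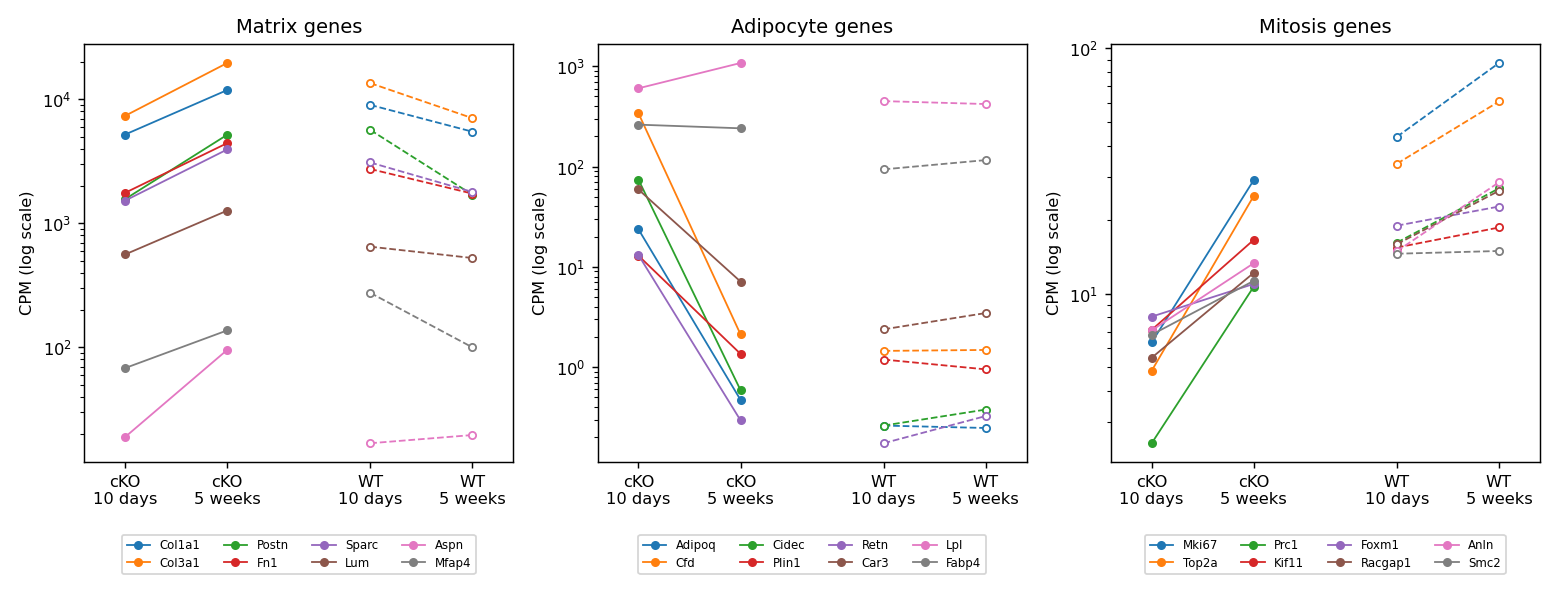
CPM on log axes for 8 matrix, 8 adipocyte and 8 mitosis genes in each of the 4 libraries, with lines joining 10 days to 5 weeks within cKO (filled, solid) and WT (open, dashed). Col3a1 went from 7365 to 19638 CPM in cKO and from 13514 to 7054 CPM in WT, Cfd went from 341 to 2.12 CPM in cKO, and all 8 mitosis genes were lowest in cKO at 10 days.

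Adipocyte genes had the lowest median ratio of the 48 gene lists. Of 15 tested, 8 were lower (1.75% of all genes were) and 0 higher, with a median of -1.38 in cKO and 0.05 in WT. Several of them reached 10 CPM through the 10-day cKO library alone, so all 19 listed were also read at any level. There 10 were at least 2-fold lower, against 4.34% of all genes read so, and 0 were higher. The median was again -1.38. Cfd, the secreted protease adipsin, was at 341 CPM in cKO at 10 days, at 2.12 CPM in cKO at 5 weeks, and at 1.45 and 1.48 CPM in WT. Cidec, a lipid droplet protein of white fat, was at 74.2 CPM in cKO at 10 days and between 0.261 and 0.589 CPM in the other 3 libraries. Adipoq, the hormone adiponectin, was at 23.7 CPM against 0.247 to 0.471 CPM. Each of the 3 genes was thus high in 1 library alone, cKO at 10 days, and the other cKO library was at the level of WT. Plin1, which coats the lipid droplet, had 12.9 CPM at 10 days and 1.35 CPM at 5 weeks, and Retn, resistin, 13.2 and 0.295 CPM. Cyp2e1, a cytochrome P450 abundant in fat and liver, was at 194.5 CPM in cKO at 10 days and 1.001 CPM at 5 weeks, and at 0.494 and 1.31 CPM in WT.

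Other adipocyte genes did not share this pattern. Lpl, lipoprotein lipase, was at 602.5 CPM at 10 days and 1078 CPM at 5 weeks in cKO, and at 449.2 and 420 CPM in WT. Fabp4, a fatty acid carrier that capillary cells also express, was at 261.7 and 240.6 CPM in cKO and at 93.7 and 116 CPM in WT. Pparg, the transcription factor of fat differentiation, had a ratio of -0.12, and Cd36, a fatty acid transporter, one of 0.60. Lep, leptin, stayed between 0.029 and 0.390 CPM in all 4 libraries. The summed level of the 19 listed genes was 2067 CPM in cKO at 10 days, 1716 CPM in cKO at 5 weeks, and 895 and 836 CPM in WT. Carry-over of adipocyte material into 1 sort was not tested.

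Mitosis genes were higher in cKO at 5 weeks, while staying under WT. Of 40 mitosis genes listed, 8 reached 10 CPM in a cKO library. All 8 were above 0, 5 were called higher, and the median was 1.18. Since the minimum can be reached through the 5-week library alone, all 40 were also read at any level, where 33 were at least 2-fold higher, against 6.02% of all genes read so, 39 were above 0 and the median was 1.82. Mki67, the Ki-67 antigen of cycling nuclei, was at 6.33 CPM at 10 days and 29.1 CPM at 5 weeks in cKO (ratio 2.19, 1.98 to 2.43), and at 43.6 and 87.2 CPM in WT. Top2a, which untangles chromosomes before they part, was at 4.85 and 25.1 CPM in cKO and at 33.9 and 60.7 CPM in WT. Prc1, which bundles the midzone of the spindle, was at 2.46 and 10.7 CPM in cKO and at 16.1 and 26.9 CPM in WT. The order of the libraries was the same for the 3 genes, with cKO at 10 days lowest, then cKO at 5 weeks, WT at 10 days and WT at 5 weeks. The summed level of the 40 genes followed that order, at 103 and 287 CPM in cKO and 389 and 655 CPM in WT.

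DNA replication genes moved less than the mitosis genes. Of 15 tested, 1 was higher (Uhrf1, which maintains DNA methylation at the fork, 1.49) and 0 lower, beside 1.8% of all genes called higher. The median of the 15 was -0.03. Pcna, the sliding clamp, was at 79.5 and 76.5 CPM in cKO. Over all 32 listed, at any level, 6 were at least 2-fold higher, against 6.02% of all genes, 0 were lower and 22 were above 0. The median of the 32 was 0.28, against 0.004 over all genes read so. Pttg1, which encodes securin, is in neither list and was singled out after its values were seen. Its level was lower, 24.5 CPM at 10 days and 3.86 CPM at 5 weeks.

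The promoters of Mki67 and Top2a are shown because cell cycle genes of late phases are known for a CHR element (TTTGAA) and CCAAT boxes just before the start site. Each sequence is the 120 bases before the RefSeq start (GRCm38.p6), read 5′ to 3′ on the strand of the gene, with CHR and CCAAT letters of either strand in capitals. The stretch of Mki67 is chr7:135716380-135716499 on the minus strand and holds 2 CHR matches, and that of Top2a is chr11:99024190-99024309 on the minus strand and holds 1 CHR match and 3 CCAAT boxes.
Mki67: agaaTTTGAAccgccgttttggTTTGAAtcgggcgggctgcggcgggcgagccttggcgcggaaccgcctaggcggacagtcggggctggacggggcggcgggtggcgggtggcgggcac
Top2a: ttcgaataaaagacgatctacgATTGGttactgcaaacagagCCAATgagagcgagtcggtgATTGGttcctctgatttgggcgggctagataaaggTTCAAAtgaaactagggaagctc
Searched on both strands of the 250 bases before the start, TTTGAA was in 12 of the 34 mitosis promoters with a RefSeq entry (35.3%) and in 965 of 7934 promoters of all genes tested (12.2%). CCAAT was in 26 of the 34 (76.5%) and in 39.6% of all, and both motifs were in 11 (32.4%) and 4.31%. Among the 26 DNA replication promoters, CCAAT was in 17 (65.4%) and TTTGAA in 4 (15.4%). A match describes letters in the window and not a bound site.

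Transcripts of the mitochondrial genome were higher in cKO at 5 weeks. Of the 13 protein genes, 12 were tested, and 10 were called higher and 0 lower, against 1.8% and 1.75% of all genes. All 12 were highest of the 4 libraries in cKO at 5 weeks, against 25.5% of all genes. The median was 1.41 in cKO and -0.06 in WT. The gene with the highest CPM, mt-Co1, a subunit of cytochrome c oxidase, was at 3038 and 6122 CPM in cKO and at 4366 and 4298 CPM in WT. Next came mt-Cytb, cytochrome b, at 1302 and 2535 CPM in cKO and 1843 and 1733 CPM in WT. In both genes the WT libraries lay between the cKO libraries and hardly differed from each other. The 13 genes together took 7844 CPM at 10 days and 20110 CPM at 5 weeks in cKO, and 11742 and 11759 CPM in WT. The ribosomal RNAs of the organelle, mt-Rnr1 and mt-Rnr2, had ratios of 0.42 and 0.41. Nuclear genes of the respiratory chain did not follow: of 30 tested, 0 were called either way and the median was -0.03 (0.46 in WT). Cytosolic ribosomal proteins were alike, with 0 of 32 called and a median of 0.04.

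The size of the mitochondrial differences depended on near-identical copies in the nuclear genome. For 7 of the 13 genes, annotated pseudogenes share at least 95% of their bases over the aligned stretch, most of them in 1 block of chromosome 1. The stretch did not always span the gene. For mt-Atp8 it was 43 of 204 bases, in Gm10925, which is also the copy of mt-Atp6. For mt-Co1, Gm29216 covered 492 of 1545 bases. The start of mt-Nd3 (chrM:9459-9548, plus strand, GRCm38) and of its copy Gm28438 (chr1:24612775-24613119 for the whole copy) shows how little separates them, with the 1 differing base of 345 in capitals.
mt-Nd3: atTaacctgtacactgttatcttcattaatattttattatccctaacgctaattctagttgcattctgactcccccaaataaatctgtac
Gm28438: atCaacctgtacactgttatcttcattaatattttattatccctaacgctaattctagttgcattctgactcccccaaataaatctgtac
Counts of such pairs are divided by the counting model. For mt-Nd3 alone the levels were 0.504 and 27.5 CPM in cKO, a ratio of 5.65, and for mt-Nd3 plus Gm28438 they were 43.6 and 130.2 CPM, a ratio of 1.58. mt-Co3 and its copy Gm28437 have 0 mismatches over 783 bases. Gm28437 was at 524 CPM in cKO at 10 days and at 0 counts at 5 weeks, and the ratio of mt-Co3 was 2.38 alone and 1.30 with the copy. mt-Co2 went from 2.10 to 1.10 and mt-Atp6 from 2.38 to 1.72 when summed with their copies. The 6 genes with no such copy had ratios from 0.92 to 1.42 in cKO and from -0.23 to 0.36 in WT. With copies added, 10 of the 13 were at least 2-fold higher, against 6.02% of all genes read without a CPM minimum. The 10 include mt-Atp8, with a ratio of 2.22 alone and 1.51 with Gm10925. The sum of all was 11079 CPM at 10 days and 24499 CPM at 5 weeks, a ratio of 1.14 (-0.05 in WT).

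**Figure D3:**
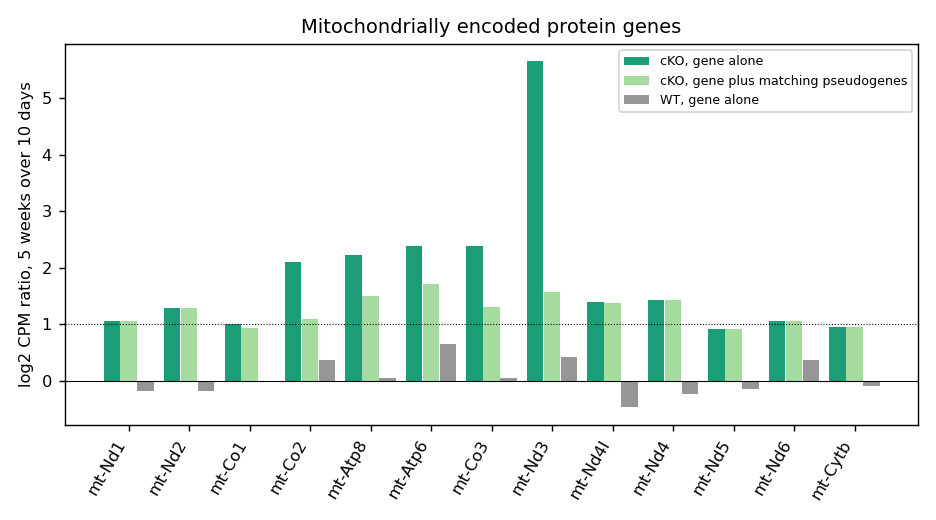
Log2 CPM ratio, 5 weeks over 10 days, of the 13 mitochondrially encoded protein genes in genome order: cKO for the gene alone (dark), cKO for the gene plus its matching nuclear pseudogenes (light) and WT for the gene alone (grey). mt-Nd3 falls from 5.65 to 1.58 when summed, and all 13 cKO bars stay above 0.92. The light bar of mt-Atp8 adds Gm10925, which matches it over 43 of 204 bases.

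Interferon-stimulated genes were lower in cKO at 5 weeks by small amounts that nearly all shared a sign. Of 28 tested, 26 were below 0, but 2 were called lower and 0 higher, against 1.75% and 1.8% of all genes. The median was -0.42 (-0.24 in WT). The 2 called genes, Isg15 and Oas2, reached 10 CPM in cKO through the 10-day library alone. At any level 2 of 32 were at least 2-fold lower, against 4.34% of all genes, and 0 were higher. The highest of the 4 libraries was cKO at 10 days for 25 of the 28, against 19.7% of all genes. Isg15, a ubiquitin-like protein, was at 16.4 and 7.81 CPM in cKO and at 6.10 and 4.96 CPM in WT. Oas2, which senses double-stranded RNA, was at 14.9 and 6.72 CPM in cKO and at 5.89 and 1.93 CPM in WT. Irf1 and Gbp2, with the highest mean CPM of the list, had ratios of -0.27 and -0.36. Of 21 antigen presentation genes, 0 were called either way and the median was -0.21, with H2-K1 at -0.29.

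The promoter of Isg15 is shown for its ISRE, the element that interferon-activated factors bind (searched as its consensus, on both strands). It is given as the 120 bases before the RefSeq start, chr4:156200819-156200938 on the minus strand (GRCm38.p6), with the ISRE letters in capitals; 3 overlapping matches lie on the other strand.
Isg15: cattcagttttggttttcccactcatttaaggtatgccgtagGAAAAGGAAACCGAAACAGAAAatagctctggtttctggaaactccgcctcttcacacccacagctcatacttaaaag
In the 250 bases before the start, the ISRE was in 11 of 23 interferon-stimulated promoters with an entry (47.8%) and in 257 of 7934 promoters of all genes tested (3.24%).

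Complement, chemokine and immediate early genes also leaned lower. Over all genes tested, 1.75% were lower and 1.8% higher. Of 17 complement genes, 6 were lower and 1 (Cd55, which shields cells from complement) higher, with a median of -0.48 and 14 highest in cKO at 10 days. The 6 were Cfd, C4b, its close paralog C4a, Masp1, and C1rb and C1s2. C4b was at 2160 and 1005 CPM in cKO and at 413.5 and 587.8 CPM in WT, while C3, the central component, was at 3273 and 3085 CPM in cKO. C1rb and C1s2 had ratios of -3.78 and -3.74, and each has a close paralog. Summed with C1ra and C1s1 the ratios were -0.07 and 0.09. In cKO at 10 days C1ra was at 592.6 CPM against 23.6 CPM for C1rb. C1s1 was at 878.3 CPM against 43.3 CPM for C1s2. The sums therefore follow C1ra and C1s1, and they cannot show whether counts were divided between the paralogs. Of 20 chemokines and cytokines, 3 were lower (Cxcl13, Tnf and Ccl2), 1 was higher (Il33) and the median was -0.57. Cxcl13, which attracts B cells, was at 227.8 CPM at 10 days and 32.5 CPM at 5 weeks in cKO, against 8.07 and 13.6 CPM in WT. The fall thus ended above WT. Of 29 immediate early genes, which cell dissociation is known to induce, Dusp2 was lower (-1.47) and none higher, with a median of -0.35. Fosb and Fos had ratios of -0.39 and -0.18.

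Steroid-responsive and acute phase genes were grouped into 2 lists after the values were seen, and they are given as description only. Of 25 glucocorticoid-induced genes, 5 were lower (1.75% of all genes were) and 0 higher, with a median of -0.49 in cKO and -0.25 in WT. Fkbp5, a chaperone of the glucocorticoid receptor, was at 114 and 30.3 CPM in cKO and at 57.7 and 25.3 CPM in WT. Zbtb16, a transcription factor that glucocorticoid induces, was at 181.7 and 52.5 CPM in cKO and at 43.3 and 25.3 CPM in WT. Of 13 acute phase genes, 7 were lower and 0 higher, with a median of -1.10. Saa3 and Serpina3m had ratios of -2.25 and -2.65.

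Cholesterol synthesis and glycolysis genes had medians below 0 in cKO and above 0 in WT. Of all genes tested, 1.75% were called lower in cKO and 1.8% higher. Of 21 cholesterol synthesis genes, Hmgcs1 was lower (-1.02) and none higher, with a median of -0.45, against 7 higher and a median of 0.84 in WT. Hmgcs1, the enzyme before HMG-CoA reductase, was at 228.6 and 112.8 CPM in cKO and at 124.9 and 268.4 CPM in WT. Of 21 glycolysis and hypoxia genes, Bnip3 was lower (-1.28) and the median was -0.09, against 7 higher and 0.71 in WT. Fatty acid synthesis genes included 3 of 22 that were lower, Acacb (-1.48), Acsl1 (-1.34) and Mlxipl (-1.69), and Fasn had a ratio of -0.60. The median of these 22 was -0.20 in cKO and 0.15 in WT, where 1 was higher and 1 lower. Mlxipl is the carbohydrate-sensing factor of lipid synthesis.

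Luminal keratin and junction genes leaned lower, and the other luminal lists did not. Of 20 luminal keratin and junction genes, 18 were below 0, 0 were called either way, and the median was -0.35. Krt8 was at 3429 and 2398 CPM in cKO and at 3085 and 2467 CPM in WT, and Krt18 had a ratio of -0.54. Hormone-sensing luminal genes had a median of 0.01, with 2 of 20 higher (Adam12, a metalloprotease also made by stroma, and Sytl2) and 1 lower (Greb1, an oestrogen receptor target, 23.2 and 9.96 CPM). Beside these stand 1.8% of all genes called higher and 1.75% lower. In WT 7 of the 20 were higher and the median was 0.91. Of 16 luminal progenitor genes, 0 were called, with a median of -0.05, and Kit was just short of the threshold at -0.97. Among 10 milk and secretory genes, Glycam1 was higher (1.21), Xdh, a milk fat globule enzyme, was lower (710.2 and 296.3 CPM), and Mfge8 had a ratio of -0.79. At any level 5 of 17 were at least 2-fold higher and 1 lower, against 6.02% and 4.34% of all genes. The median of the 17 was 0.02.

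Genes of cell types that the sort was meant to remove were present, and the endothelial and globin genes tested had ratios above 0 in cKO. Of 13 endothelial genes all were above 0 and highest in cKO at 5 weeks, against 25.5% of all genes highest there. Of the 13, 0 were called, beside 1.8% of all genes called higher and 1.75% lower, and the median was 0.62. Pecam1, which encodes the CD31 used in the sort, was at 33.9 and 55.9 CPM in cKO and at 30.9 and 35.7 CPM in WT. Ptprc, which encodes CD45, was at 18.9 and 30.7 CPM in cKO and at 9.32 and 7.26 CPM in WT. Of 4 lymphocyte genes tested, 2 were higher (Cd79a and Ighm), beside 1.8% of all genes. At any level 5 of 21 were at least 2-fold higher, against 6.02% of all genes, and 0 were lower. Of the 21, however, 11 were above 0 and the median was 0.04. All 3 erythroid genes tested, the globins Hbb-bs, Hba-a1 and Hba-a2, were higher, but they reached 10 CPM through the 5-week cKO library alone. At any level 4 of 5 erythroid genes were at least 2-fold higher, against 6.02% of all genes, and 0 were lower. The erythroid list summed to 15.4 and 85.3 CPM in cKO and 33.2 and 36.9 CPM in WT. Of 14 pericyte and vascular smooth muscle genes, Tbx18 was higher (1.10), and of 8 myeloid genes none was called. At any level 12 of 21 myeloid genes were above 0, 1 was at least 2-fold higher and 2 lower, with a median of 0.14. The part of these cells in the matrix and other results was not tested.

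Among growth signals the called members were few. Over all genes tested, 1.8% were called higher and 1.75% lower. H19, the imprinted long noncoding RNA and a non-coding gene outside the rule for named genes, was at 17.4 CPM at 10 days and 194.5 CPM at 5 weeks in cKO, and at 68.9 and 41.1 CPM in WT. Mest and Plagl1, imprinted genes of fetal growth, were higher (1.51 and 1.16, and -1.15 and -0.19 in WT), and they were with H19 the 3 called of 15 imprinted genes. Of 16 IGF axis genes, Igfbp3, which binds IGF, was lower, at 1243 and 426.3 CPM in cKO and at 263.2 and 443.5 CPM in WT. Igfbp5, another binding protein, had a ratio of 0.03. Of 22 Wnt genes, Wnt10b (1.38), Sfrp2 (1.08) and Wnt2 (1.03) were higher and Wif1, an inhibitor, was lower (-1.38). Of 15 Notch genes and of 16 heat shock genes 0 were called either way. Of 22 p53 targets and growth arrest genes, Gadd45b was lower (-1.03). Among 19 circadian clock genes, Dbp (-1.58) and Nr1d1 (-1.51) were lower, and no source used here gives the hour of harvest. Unfolded protein response genes, with 0 of 22 called, had a median of 0.23.

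**Figure D4:**
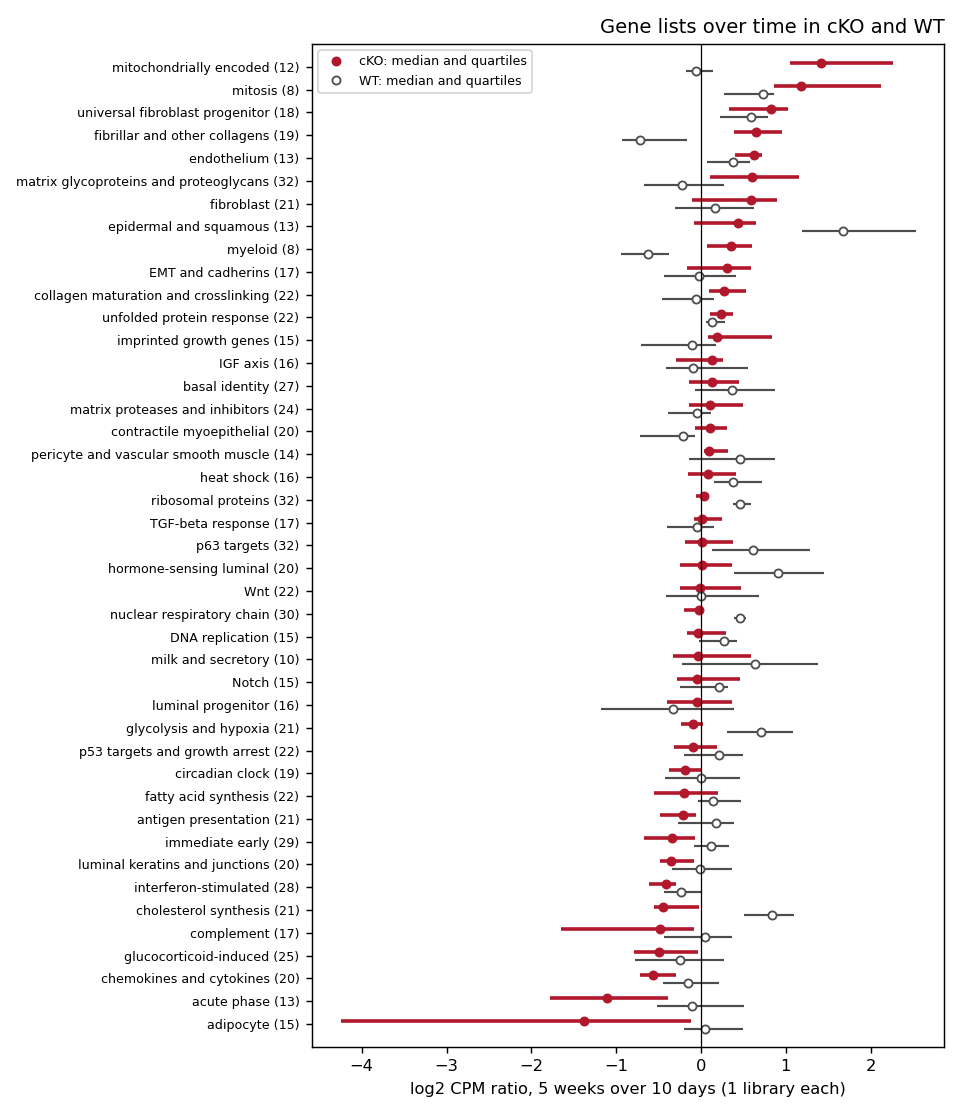
Median (point) and quartiles (line) of the log2 CPM ratio, 5 weeks over 10 days, in cKO (filled) and WT (open), for each gene list with at least 8 genes tested; the number tested is in parentheses. Mitochondrially encoded genes lead at 1.41 and adipocyte genes end the order at -1.38; collagens stand at 0.65 in cKO and -0.71 in WT.

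The most extreme single ratios included rare transcripts, members of paralog pairs and, at the low end, adipocyte genes. Gm and Rik names were left out at both ends. The 12 highest protein-coding genes were then Gvin1, Serpinb2, mt-Nd3, Tpm3-rs7, Krt1, Trim12a, Hbb-bs, Sv2c, Krt77, Rps27, Krt10 and Rab6b. Gvin1, an interferon-inducible GTPase with many relatives, had 0 counts at 10 days and 947 at 5 weeks, which is at least 295-fold higher against a floor of 3 counts in that library. Its WT levels were 3.48 and 5.80 CPM. Serpinb2, an inhibitor of plasminogen activators, was at 0.252 and 14.9 CPM in cKO and at 14.4 and 10.9 CPM in WT, so that cKO at 10 days was the library apart. The 12 lowest were Ceacam2, Cyp2e1, Cfd, Cidec, Adipoq, Retn, Fam177a, C1rb, C1s2, Ifi202b, Cwc22 and Plin1, of which 5 are in the adipocyte list. Ifi202b, an interferon-inducible DNA sensor with close relatives, was at 70.9 and 5.83 CPM in cKO and at 34.8 and 63.3 CPM in WT. Cwc22, a splicing factor, was at 262.2 and 22.4 CPM in cKO and at 160.8 and 29.0 CPM in WT.

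Pairs of near-identical genes had smaller ratios when summed. In each pair the partner was the more abundant gene in both cKO libraries. A small summed ratio therefore does not show how counts were divided. Ceacam2 had a ratio of -7.95 (-9.41 in WT), and with Ceacam1 the sum was 228.2 and 270.2 CPM, a ratio of 0.24. Tpm3-rs7 had 5.18, and 577 and 494.5 CPM with Tpm3, a ratio of -0.22. Rps27 had 3.60, and -0.06 with Rps27rt, and Trim12a had 4.09, and 0.48 with Trim12c. Pseudogenes made up 18 of the 187 higher genes (9.63%) and 36 of the 182 lower genes (19.8%), against 2.33% of all genes tested. The summed pairs and the pseudogenes are therefore uncertain as changes of a single gene.

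The genes called in cKO were compared with the same step in WT, with no test of the difference possible at 1 library each. Of the 187 genes higher in cKO, 45 (24.1%) were also at least 2-fold higher in WT, or 11.9% of the 378 genes higher there, and 22 (11.8%) were at least 2-fold lower in WT. Over all genes tested these WT shares were 3.63% and 2.76%. Of the 182 genes lower in cKO, 45 (24.7%) were lower in WT, or 15.6% of the 288 lower there, and 21 (11.5%) were higher. Across the 10417 genes the ratios in the 2 genotypes had a Pearson correlation of 0.22 and a Spearman correlation of -0.004; the genes share libraries and are not independent replicates. Protein-coding genes that were opposite past 2-fold with at least 10 CPM in 1 of the 4 libraries numbered 46. This count leaves out names beginning Gm or ending in Rik. Of these, 27 were higher in cKO and lower in WT. Lrrc15, a surface protein of matrix-producing fibroblasts, was 1 of them, at 14.6 and 56.6 CPM in cKO and at 84.0 and 17.7 CPM in WT. Mest and Postn shared that direction.

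**Figure D5:**
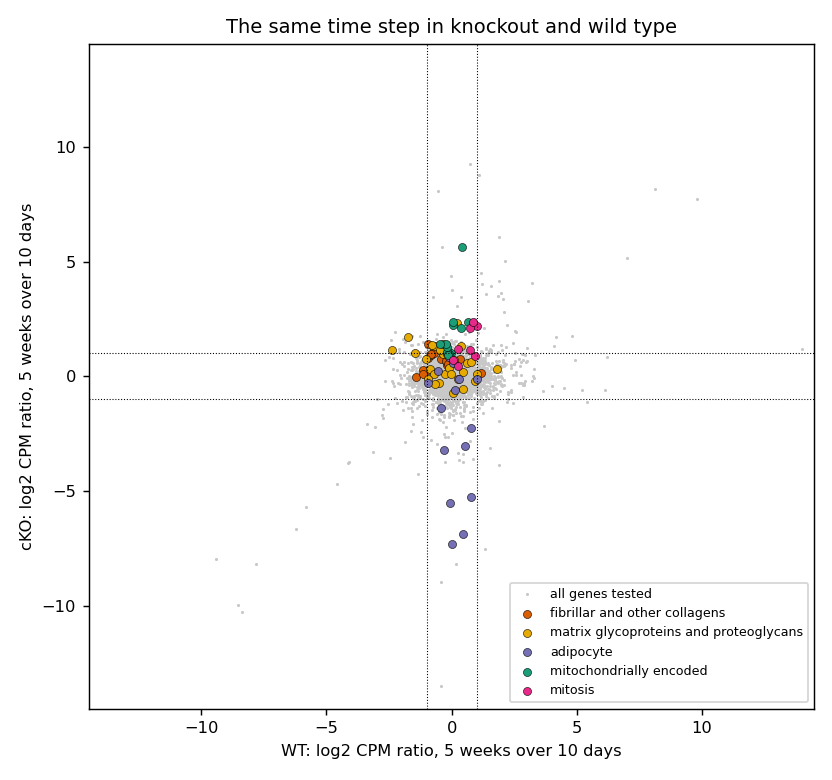
Log2 CPM ratio, 5 weeks over 10 days, in WT (x) and cKO (y) for the 10417 genes tested; dotted lines mark 2-fold in either genotype. Of 19 collagens, 18 were above 0 in cKO and 17 below 0 in WT. Of 32 matrix glycoproteins and proteoglycans, 25 were above 0 in cKO and 20 below 0 in WT. Of 15 adipocyte genes, 12 were below 0 in cKO and 3 above. Across all genes the Pearson correlation is 0.22.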

How the data were processed

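RNA was sequenced from 4 libraries of sorted mouse mammary cells, 2 of them cKO (10 days and 5 weeks). The authors deposited estimated counts per gene as whole numbers; Salmon and GRCm38 are named, without versions, per the submitters' processing notes. No source used here gives the annotation or the strand setting. All 54393 identifiers matched GENCODE M21, which gave symbols and positions. Totals were between 31714181 and 79122250, and 0 columns belonged to other samples.

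Genes were filtered with filterByExpr of edgeR 4.0.16 (R 4.3.3; minimum count 10), which left 18917, and scaled by TMM over the 4 libraries. Log2 CPM ratios used a prior count of 2, for genes with at least 10 CPM in either cKO library, and 8500 genes fell under that minimum. A call means at least 2-fold. Intervals are exact binomial (Clopper-Pearson) at 95% and cover counting error only, and a count of 0 was read as up to 3 counts. There are 0 residual degrees of freedom, so no test was made. The script was tested on simulated data.

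Named genes were Trp63, Krt5 and Krt14, the 12 highest and 12 lowest protein-coding ratios, 2 per direction past 2-fold and the 2 most abundant of each list, and 6 per direction of those opposite in WT. Names beginning Gm or ending in Rik were left out of these sets and of the count of opposite genes. Other names were chosen after their values were seen. The comparison, the 48 gene lists and the rules were chosen with earlier results of these data known, 2 lists after the values were seen. Scaling, prior count, CPM minimum and gene type were varied, with DESeq2 1.42.0 for 1 set of size factors. Promoters are from RefSeq (GRCm38.p6), matched by symbol.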

Additional observations from a re-analysis of the deposited data

Results flagged for a closer look

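The 12 genes below had opposite directions over time in the 2 genotypes, each past 2-fold. They were the 6 per direction with the largest gap, leaving out non-coding genes and Gm and Rik names. With 1 library a genotype and time, the difference was not tested. Values are log2 ratios, 5 weeks over 10 days. Higher in cKO and lower in WT were Csn1s1, a casein (3.42 and -3.22), Esrrb (2.22 and -4.17), Reln (1.60 and -2.42), Lrrc15 (1.95 and -2.25), Shc4 (1.72 and -2.55) and Cel (1.10 and -2.73). Lower in cKO and higher in WT were Cyp2e1 (-7.54 and 1.34), Muc5b (-4.17 and 2.27), Fam177a (-3.85 and 1.89), Prg4 (-3.13 and 1.53), Foxq1 (-1.94 and 1.89) and Agr2 (-1.17 and 2.65). Of these, Reln, a secreted matrix protein, was at 8.53 and 26.0 CPM in cKO and at 60.1 and 11.2 CPM in WT. Several rest on few counts: Agr2 had 6 and 2 counts in cKO, with an interval from -5.02 to 0.80 that includes no change, and Muc5b had 58 and 2. Prg4, lubricin, was at 46.0 CPM in cKO at 10 days and at most 5.21 CPM elsewhere.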

How the results depend on the processing

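The counts of 187 higher and 182 lower genes moved most with the CPM minimum. A minimum of 5 CPM gave 300 and 235 (of 12204), none gave 1138 and 821 (of 18917), and 20 CPM gave 132 and 125 (of 8160). Under the other scalings and prior counts they ran from 182 to 203 and from 175 to 186, and protein-coding genes alone gave 149 and 132. Leaving out mitochondrially encoded genes from TMM, chosen after seeing the data, gave 199 and 178. No list median or gene ratio past 2-fold changed sign. At the threshold, mt-Co1 was 0.996 with plain library sizes, Hmgcs1 -0.997 with upper-quartile factors and Agr2 -0.81 with a prior count of 5. Trp63 reached 1.01 with upper-quartile factors. The adipocyte median was -0.99 and the acute phase median -0.81 with at least 20 CPM, and the lymphocyte median of 1.01 went to 0.04 without a minimum. Scaling moved the median of all genes by at most 0.02 either way. No paired analysis was possible because each genotype and time has 1 library and no replicate numbers; for the same reason no library could be left out.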

Other observations

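The genes in this section were picked after their values were seen and are given as values only. Among stromal signals, Fgf10, a growth factor that stroma sends to branching epithelium, was at 20.6 CPM at 10 days and 61.6 CPM at 5 weeks in cKO, and at 9.58 and 18.9 CPM in WT. Cthrc1, a secreted protein of matrix-producing fibroblasts, was at 5.57 and 19.2 CPM in cKO and at 19 and 6.38 CPM in WT. Frem1, a basement membrane protein, had 18.6 and 58.3 CPM in cKO and 67.0 and 17.6 CPM in WT. The WT direction of Cthrc1 and Frem1 was thus the opposite of that in cKO, and that of Fgf10 the same. Upk3a, a uroplakin of the bladder lining, was higher at 5 weeks in both genotypes, with ratios of 3.30 in cKO and 3.03 in WT.

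Of the genes lower in cKO at 5 weeks, 4 more are given singly. Ehhadh, a peroxisomal enzyme of fatty acid breakdown, was at 45.0 and 7.89 CPM in cKO and at 9.06 and 7.33 CPM in WT. Gpx3, a secreted glutathione peroxidase, was at 1686 and 538 CPM in cKO and at 1086 and 548 CPM in WT. Hp, haptoglobin, was at 207 and 63.2 CPM in cKO against 80.5 and 74.8 CPM in WT. Galnt15, which starts O-glycans, was at 416 and 105 CPM in cKO against 69.2 and 92.7 CPM in WT. In these 4 genes cKO at 10 days was the highest library, and cKO at 5 weeks lay nearer to WT at 5 weeks than to cKO at 10 days.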
